A study of Mus musculus with 32 samples.

Results

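The genes described here are 37 genes of the complement system and of blood coagulation and fibrinolysis whose proteins are made mainly by the liver. They were chosen by gene symbol, and each symbol matched 1 row of a table of 55487 genes. All 37 passed the filter on low counts and were tested beside the 14903 genes that passed it.

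The libraries are polyA RNA sequencing of whole mouse liver. Wild type (WT) mice were compared with mice carrying FAAH S268D, a substitution in fatty acid amide hydrolase, which degrades anandamide and other fatty acid amides. All mice had been fed for 28 weeks. The diets are named NASH (after non-alcoholic steatohepatitis) and NASH-AA in the labels, and HFFC, plain or with ARA, in the series text. The 4 groups were thus WT NASH, WT NASH-AA, FAAH S268D NASH and FAAH S268D NASH-AA, with 8 libraries each. The labels give no sex, age or strain and place no untreated group beside these, so each comparison is between 2 diets or between 2 genotypes on one of them. They do not say whether the 8 libraries of a group came from separate mice, and p-values then measure only the spread between the libraries, which may be technical.

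Complement is a cascade of plasma proteins that marks and lyses microbes and damaged cells. It starts from antibody (classical), from sugars (lectin) or by slow turnover of C3 (alternative), converges on C3, and ends in a membrane pore built from C5 to C9. Coagulation is a parallel chain of liver-made proteases that ends with thrombin cutting fibrinogen into fibrin. Anticoagulant serpins and the protein C system restrain it, and plasmin dissolves the clot. Hepatocytes secrete nearly all of these proteins, many are induced in the acute-phase response, and factor D (adipsin) is the exception in that fat tissue is its usual source.

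Together the 37 genes took a median of 3.036% (NASH) and 3.343% (NASH-AA) of all counts in wild type libraries, and 2.989% (NASH) and 3.464% (NASH-AA) in FAAH S268D libraries. Library totals ran from 3851626 counts, in FAAH S268D NASH replicate 1, through 14743252 in the next shallowest to 34370178, with a median of 22896701. Levels are given below as normalised CPM (counts scaled to a common library size) for comparing libraries, and as CPM per kilobase of exon for comparing genes. Per kilobase, C3 was the most abundant member with a median level of 1360 over the 32 libraries, followed by Fgg (1114), Fga (1048), Fgb (757) and Plg (531). The least abundant were F11 (12.2), Cfd (14.2) and Pros1 (16.1). Hepatocyte markers summed to median levels of 83729 to 116184 CPM in the 4 groups, so the cell type that should dominate whole liver was present throughout.

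Libraries of the same group differed most in Cfd, with a within-group SD of 1.24 on the log2 scale, and then in C8b (0.81), C6 (0.46) and C8a (0.36). The steadiest members were F12 and C1s1, both at 0.09, and Cfb at 0.12. The library FAAH S268D NASH replicate 3 stood apart from its group. The median deviation of the 37 genes from their means was 0.35 on the log2 scale in that library, the highest of all 32, and the same group also held one of the lowest, replicate 5 at -0.32. Results that rest on either library are given with and without it.

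NASH-AA was set against NASH in wild type livers to ask what the changed diet does where FAAH is unaltered. Nearly all 37 genes leaned upward by a small amount, and 4 passed the threshold, an adjusted p under 0.05 by limma-voom over all genes. The 4 were Cfd, Cfi, Masp2 and F2, all higher on NASH-AA. In the background, 4.41% of 14903 genes passed, 1.44% (215 genes) higher and 2.97% lower, and 0 members were lower. The fold change was positive in 36 of 37 members with a median of 0.22 (log2), against 0.005 over all genes tested, and 23 members had an unadjusted p under 0.05, all higher (9.94% of all genes higher and 14.5% lower). In 0 of 37 members did the 2 groups fail to overlap, against 0.282% of all genes. Hepatocyte markers moved with them, with a median of 0.28 over 19 genes (2 higher, 1 lower), and macrophage markers moved the other way, with a median of -0.66 over 14 genes (0 higher, 3 lower). In whole liver, fewer cells of a type and less RNA per cell cannot be told apart.

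**Figure D1:**
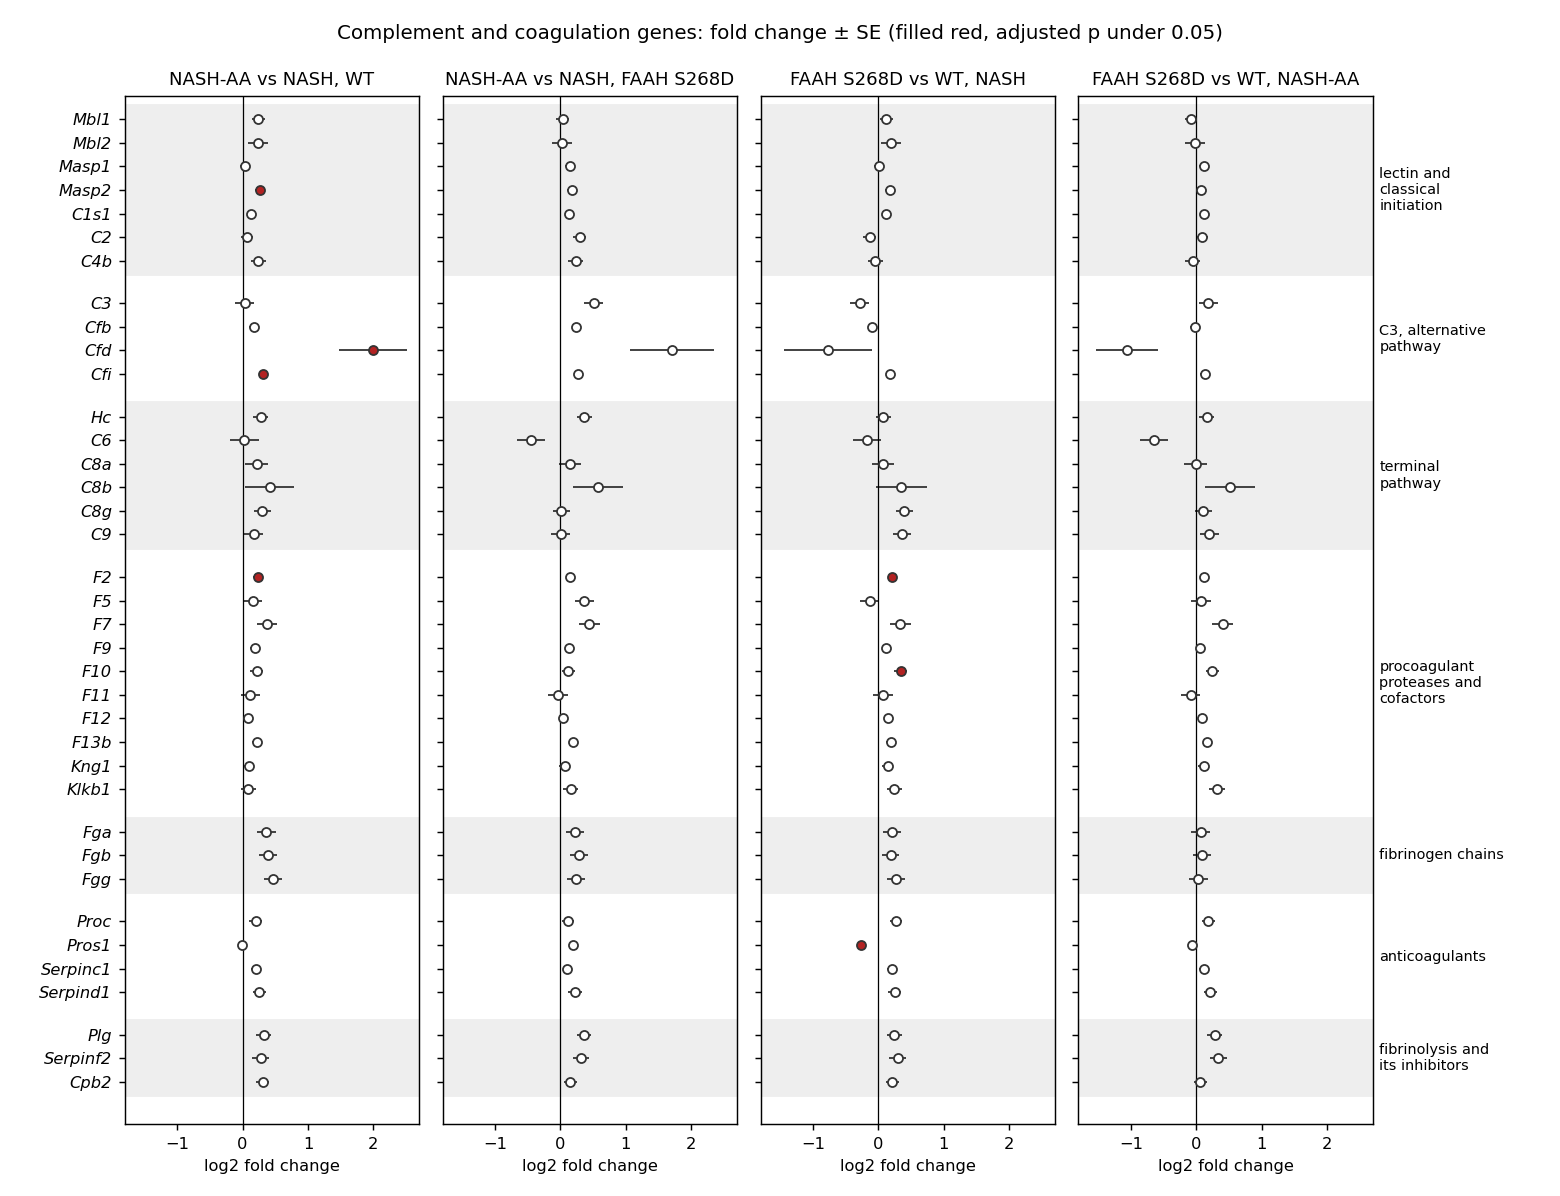
Log2 fold change (x axis, point) with its standard error (bar) for each of the 37 genes (y axis, by role) in the 4 comparisons of 8 against 8 libraries; filled points passed an adjusted p of 0.05. In wild type 36 of 37 genes lay to the right of 0 on NASH-AA, Cfd stood far to the right of the others, and Pros1 was the 1 filled point to the left of 0, for genotype on NASH.

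Cfd encodes factor D, the protease that cuts factor B and so starts the alternative pathway. Its gene lies on chromosome 10, 79890853 to 79892655, on the forward strand of GRCm38. In WT NASH its lowest, median and highest levels were 2.30, 5.80 and 28.9 CPM, and in WT NASH-AA they were 7.72, 30.4 and 49.5 CPM. All 8 NASH-AA libraries lay above the NASH median, but the groups overlapped, because WT NASH replicate 3 was higher than several NASH-AA libraries. The change was 1.99 ± 0.52 on the log2 scale (SE, 8 libraries a group; adjusted p = 0.0326 by limma-voom), about 3.98-fold, the largest of the 37. In FAAH S268D the levels were 0.99, 3.50 and 16.9 CPM on NASH and 2.24, 14.6 and 24.4 CPM on NASH-AA, and 7 of 8 libraries lay above the NASH median. That change was 1.71 ± 0.64 and did not pass (adjusted p = 0.27). The 2 changes differed by -0.29 ± 0.82 (interaction, adjusted p = 0.961), so a difference between genotypes was not detectable at this spread.

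The counts behind Cfd were low, with medians of 146 (NASH) and 697 (NASH-AA) counts in wild type, 56 (NASH) and 297 (NASH-AA) counts in FAAH S268D, and a lowest library of 21. The wild type call was lost when any 1 of 8 single libraries was left out, WT NASH replicates 2, 4, 7 and 8 and WT NASH-AA replicates 3, 5, 7 and 8, with adjusted p-values between 0.0524 and 0.0796. The size of the change was steadier. It was 2.002 ± 0.84 among library numbers 1 to 16 and 2.01 ± 0.64 among numbers 17 to 32 (adjusted p = 0.414 and 0.116), 2 ranges of the number in the library name.

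Genes that define fat cells were at or near 0 in the same livers. Adipoq had 8 counts over all 32 libraries, Lep 0, Retn 8, Plin1 11 and Acvr1c 42, and a total of 0 allows up to 3 counts, by counting error only. The summed level of the 10 adipocyte genes, most of it from genes that a fatty liver also transcribes, had medians of 236 CPM in WT NASH and 129 CPM in WT NASH-AA. In FAAH S268D these were 224 and 93.5 CPM. By diet that sum was lower where Cfd was higher, and by genotype both were lower in FAAH S268D. From library to library within the groups the adipocyte genes and Cfd tended to go together. The median deviation of the 5 adipocyte genes that passed the filter (Cidec, Cidea, Adrb3, Fabp4 and Lipe) was highest in WT NASH replicate 3, WT NASH-AA replicate 1 and FAAH S268D NASH replicate 1, where Cfd was also highest of its group. In FAAH S268D NASH-AA the highest differed, replicate 2 for the adipocyte genes and replicate 8 for Cfd. After each group's mean was removed, its correlation with Cfd over the 32 libraries was r = 0.575 (permutation p = 0.0006) and rho = 0.446 (permutation p = 0.0111), a single relation chosen after the values were seen. Without the 2 farthest libraries r was 0.429, and within the 2 ranges of library numbers 0.525 and 0.683. Libraries numbered replicate 1, some of them among the highest named here, were also low for several long genes. Cfd in them lay above the group mean by an average of 0.94 (log2). The shallowest library of the series is one of them. The relation of Cfd to the adipocyte genes without the libraries numbered replicate 1 was not tested. The 5 genes near 0 summed to 22 (NASH) and 11 (NASH-AA) counts over the wild type libraries and to 9 (NASH) and 27 (NASH-AA) over the FAAH S268D libraries, too few to compare libraries. The part of fat cells in the Cfd values was not tested.

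The 250 bases before the RefSeq start of Cfd (GRCm38.p6, chr10:79890603-79890852, forward strand) are shown because this was the gene with the largest change. Capitals mark the letters CTGGGA, the core of the interleukin 6 response element of acute-phase genes, on either strand.
Cfd: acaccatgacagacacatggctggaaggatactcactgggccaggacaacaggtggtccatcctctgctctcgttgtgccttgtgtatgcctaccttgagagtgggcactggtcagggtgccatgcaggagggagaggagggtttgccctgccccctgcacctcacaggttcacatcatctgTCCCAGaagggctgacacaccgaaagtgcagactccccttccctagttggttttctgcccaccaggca
The window holds 1 match, on the reverse strand. A match is a description of the letters, and 27% of the 32851 promoters in the table hold this one.

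The other members of the C3 and alternative pathway group moved by far less. Cfi encodes factor I, the protease that inactivates C3b and C4b and so restrains the cascade (chromosome 3, 129835884 to 129875332). Its lowest, median and highest levels were 382, 463 and 533 CPM in WT NASH and 509, 573 and 688 CPM in WT NASH-AA. Every NASH-AA library lay above the NASH median, with overlap only near 509 to 533 CPM. Cfi rose by 0.32 ± 0.07 (adjusted p = 0.018 by limma-voom), the smallest adjusted p of the 37 in this comparison, and kept the call in 10 of 14 other settings. It lost it without WT NASH-AA replicate 5 (adjusted p = 0.0554), the highest library of its group, within each range of library numbers (adjusted p = 0.403 and 0.0687), and with hepatocyte markers as the scale (0.427). Cfb, factor B, stood at 0.17 ± 0.07 (adjusted p = 0.11). C3, the central component, gave 0.03 ± 0.15 (adjusted p = 0.918), with levels from 5087 to 11937 CPM in WT NASH and 4743 to 9177 CPM in WT NASH-AA.

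Of the 7 genes that start the lectin and classical pathways, all 7 had positive values and 1 passed. Masp2 encodes the mannose-binding lectin associated protease that cuts C4 and C2 (chromosome 4, 148602554 to 148615499). It was at 159, 201 and 239 CPM (lowest, median, highest) in WT NASH and 212, 242 and 251 CPM in WT NASH-AA. All 8 NASH-AA libraries lay above the NASH median and the groups overlapped through WT NASH replicates 1 and 5. Masp2 rose by 0.27 ± 0.08 (adjusted p = 0.0423 by limma-voom), a call lost in 13 of 32 fits that left out 1 library and kept in 5 of 14 other settings. In the other direction, 10 members passed without WT NASH replicate 5, all higher (4.84% of all genes higher in that fit), F9, F13b, Fgg, Plg, Cpb2 and Serpinc1 beside the 4. The lectins Mbl1 and Mbl2, which bind microbial sugars, gave 0.24 ± 0.10 and 0.23 ± 0.15 without passing. Values of 0.13 for C1s1 (the C1s protease) and 0.24 for C4b did not pass either, and Masp1 and C2 stood at 0.04 and 0.07. Deposited values that were not whole numbers occurred in 6 members, C1s1, C2, C4b, Cfb, Kng1 and Klkb1, where reads may have been divided between a gene and a near copy or an overlapping gene, so their levels are uncertain.

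The terminal pathway genes, which encode the parts of the membrane pore, had 6 of 6 positive values in wild type and 0 past the threshold. Hc, the mouse C5 gene, had the smallest p of the group. It was at 619, 708 and 879 CPM in WT NASH and 637, 904 and 1112 CPM in WT NASH-AA (lowest, median, highest; 0.28 ± 0.12, adjusted p = 0.133). The 3 chains of C8 did not vary alike. C8b ran from 29.7 to 74.0 CPM in WT NASH and from 29.2 to 113 CPM in WT NASH-AA, a change of 0.41 ± 0.38 within a wide spread. C8a, its neighbour on chromosome 4, gave 0.21 ± 0.17, and C8g, on chromosome 2, gave 0.30 ± 0.13. C9 gave 0.17 ± 0.14 and C6 0.03 ± 0.22, none of them past the threshold.

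Among the 10 procoagulant proteases and cofactors, 10 of 10 values were positive in wild type and F2 passed. F2 encodes prothrombin, the precursor of thrombin (chromosome 2, 91625320 to 91636414). Its levels were 1188, 1400 and 1643 CPM in WT NASH and 1565, 1667 and 1763 CPM in WT NASH-AA. The overlap was confined to WT NASH replicates 5 and 6, which reached into the NASH-AA range, and the change was 0.24 ± 0.07 (adjusted p = 0.0491 by limma-voom). This value sat at the threshold. It was lost in 22 of 32 fits that left out 1 library and kept in 4 of 14 other settings. F7, the trigger protease of the tissue factor pathway, gave the largest value of the group, 0.38 ± 0.16 (adjusted p = 0.142), and F12, which starts the contact pathway, the smallest, 0.09 ± 0.05. F9, F10 and F13b stood at 0.19, 0.22 and 0.22, and F5, F11, Kng1 and Klkb1 between 0.09 and 0.15.

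The 3 fibrinogen genes Fga, Fgb and Fgg encode the chains of the clot protein and sit together on chromosome 3. In wild type all 3 values were positive and 0 passed. Fgg (83007724 to 83015049) came nearest. It was at 1529, 1830 and 2554 CPM in WT NASH and 1957, 2377 and 3352 CPM in WT NASH-AA. All 8 NASH-AA libraries were above the NASH median, and the change was 0.46 ± 0.14 (adjusted p = 0.0526 by limma-voom). Fga and Fgb gave 0.37 ± 0.14 and 0.39 ± 0.14 (adjusted p = 0.103 and 0.0835).

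The 3 chains rose and dipped together from library to library. After each group's mean was removed, Fga and Fgb correlated over the 32 libraries with Pearson's r = 0.981 and Spearman's rho = 0.948, Fga and Fgg with r = 0.967 and rho = 0.949, and Fgb and Fgg with r = 0.982 and rho = 0.98. For each, p = 1e-05 raw and adjusted over 6 relations, the smallest that 100000 permutations can give. Without the 2 libraries farthest from the median, r was 0.965, 0.949 and 0.974, and within the 2 ranges of library numbers it lay between 0.963 and 0.991. C8a and C8b (r = 0.889, rho = 0.87) and F7 and F10 (r = 0.893, rho = 0.914), both pairs of neighbours on a chromosome, also varied together, each with permutation p = 1e-05 and r = 0.841 and 0.848 without the 2 farthest libraries. The neighbours C2 and Cfb gave r = 0.594 and rho = 0.577 (permutation p = 0.00039 and 0.00069, 0.501 without the 2 farthest). Both are among the members whose deposited values were not whole numbers. Reads may have been divided between them, and the part of this in their correlation was not tested. The genes share the same libraries and their depth. Over all 666 pairs of the 37 genes the median r was 0.413, and 128 pairs were below 0.

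The 250 bases before the RefSeq start of each fibrinogen gene (GRCm38.p6) are shown because these 3 genes moved together. The windows are chr3:83025903-83026152, forward strand (Fga), chr3:83049864-83050113, reverse strand (Fgb), and chr3:83007474-83007723, forward strand (Fgg), with CTGGGA in capitals.
Fga: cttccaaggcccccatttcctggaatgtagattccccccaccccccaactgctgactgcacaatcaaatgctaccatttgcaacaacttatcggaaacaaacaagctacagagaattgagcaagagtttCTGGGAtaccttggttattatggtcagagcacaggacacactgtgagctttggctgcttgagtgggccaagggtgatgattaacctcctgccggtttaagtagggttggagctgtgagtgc
Fgb: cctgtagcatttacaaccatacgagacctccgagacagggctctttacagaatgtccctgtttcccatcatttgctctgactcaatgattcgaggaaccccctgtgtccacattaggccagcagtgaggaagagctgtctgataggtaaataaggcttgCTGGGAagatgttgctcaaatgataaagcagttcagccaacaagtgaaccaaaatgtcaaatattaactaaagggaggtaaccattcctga
Fgg: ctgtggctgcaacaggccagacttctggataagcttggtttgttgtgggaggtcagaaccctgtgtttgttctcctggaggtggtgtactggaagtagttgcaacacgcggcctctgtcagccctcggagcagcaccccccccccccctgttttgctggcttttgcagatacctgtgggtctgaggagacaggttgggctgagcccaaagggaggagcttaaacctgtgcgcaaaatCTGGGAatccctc
Each holds 1 match, which begins at base -121 in Fga, -91 in Fgb and -13 in Fgg, counted from the RefSeq start. Of the 37 genes 29 had a promoter in the table. Members were counted by gene, with a match in any of its promoters, and the background by promoter. The shares are therefore of unlike units, and a difference between them was not tested. CTGGGA was found in 13 of the 29 (44.8%, against 27% of all promoters). TTGCNNAA, a form of the C/EBP site, was found in 8 of 29 (27.6%, against 9.56%), at -135 in Fga and -80 in Fgb. The matches in these windows shared no base with each other.

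**Figure D2:**
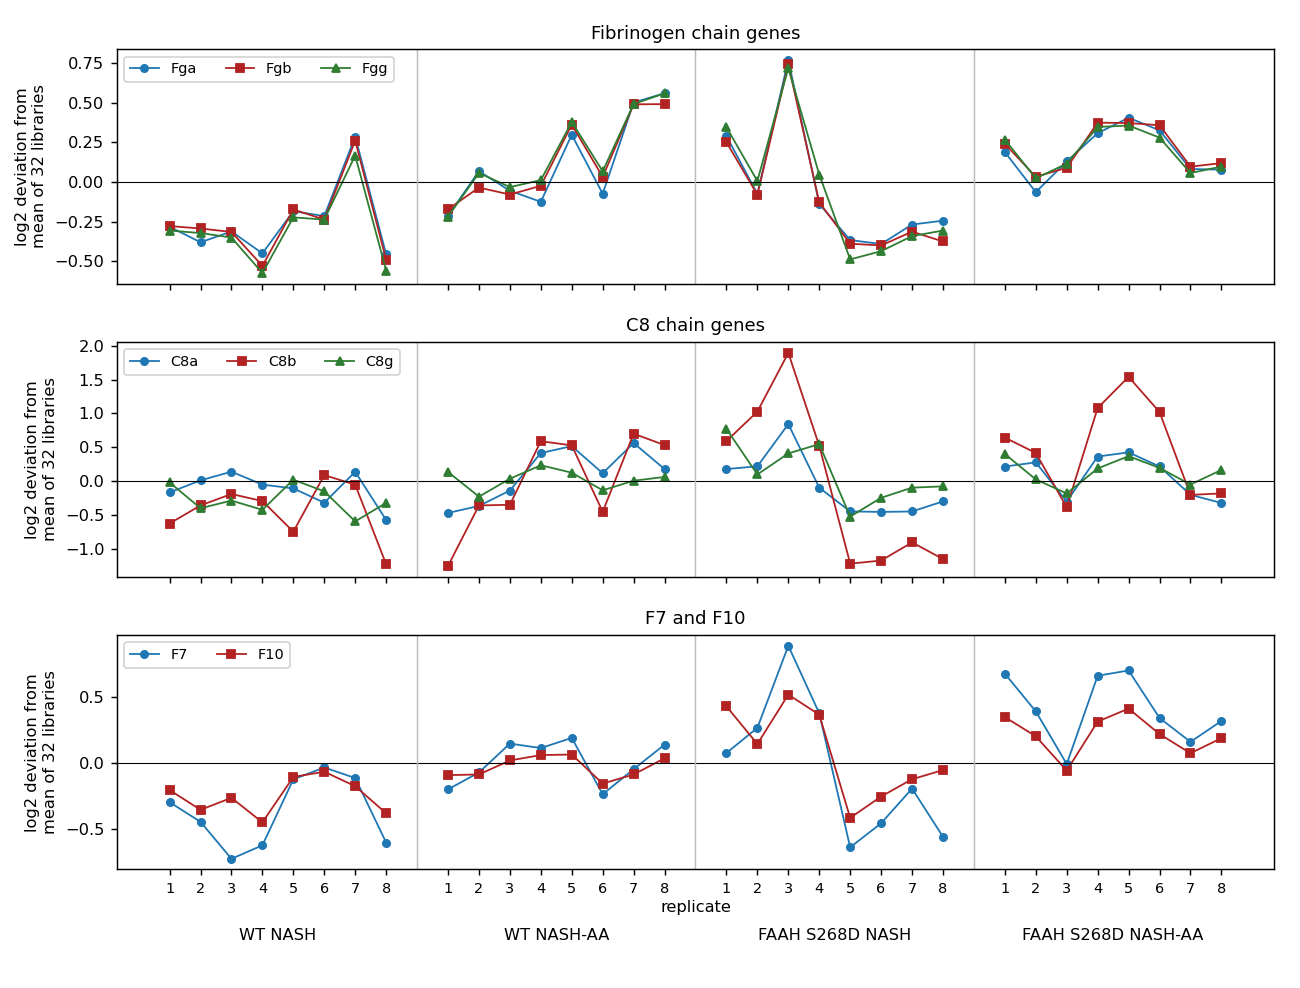
Log2 deviation of each gene from its mean over the 32 libraries (y axis) by replicate within each group (x axis; the lines join libraries for reading only, since replicates have no order). The 3 fibrinogen chains trace almost 1 line, with their highest point in FAAH S268D NASH replicate 3; C8b swings more widely than C8a, and C8g follows them less closely.

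Among the 4 anticoagulant genes 3 values were positive and 0 passed in wild type. Serpinc1 (antithrombin), Serpind1 (heparin cofactor II) and Proc (protein C) gave 0.20 ± 0.07, 0.26 ± 0.10 and 0.20 ± 0.10. Pros1, the cofactor of protein C, was the single member with a negative value, -0.005 ± 0.068. All 3 genes of fibrinolysis and its inhibitors were positive, and none passed. Plg, which encodes plasminogen (chromosome 17, 12378608 to 12419385), was at 1330, 1491 and 1953 CPM in WT NASH and 1564, 2019 and 2262 CPM in WT NASH-AA (0.32 ± 0.11, adjusted p = 0.0788). Serpinf2, the plasmin inhibitor gene, and Cpb2, the gene of an enzyme that protects fibrin from plasmin, gave 0.28 ± 0.13 and 0.31 ± 0.10. The median change was 0.39 over the fibrinogen chains, 0.17 over the procoagulant genes, 0.20 over the anticoagulants and 0.31 over fibrinolysis and its inhibitors, and differences between these groups were not tested.

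**Figure D3:**
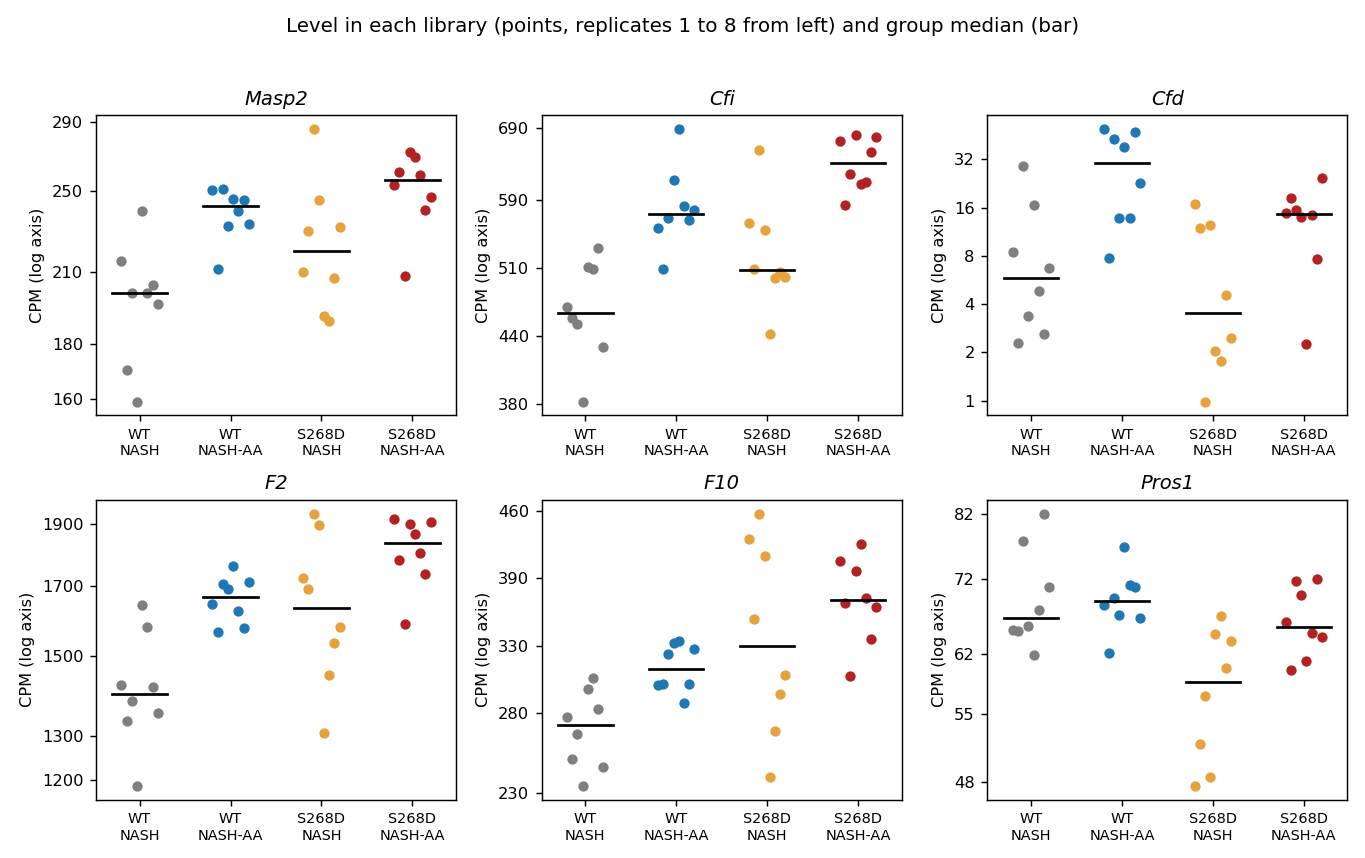
Level in CPM (y axis, log scale) of the 6 genes that passed in any comparison, 1 point per library in the order of replicates 1 to 8 and a bar at the group median. Cfd spans from 0.99 to 49.5 CPM and its NASH-AA medians lie above the NASH medians in both genotypes, while in FAAH S268D NASH the 4 lowest Pros1 libraries, at 47.6 to 56.9 CPM, lay below every library of the other 3 groups.

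The same diets were compared in FAAH S268D livers, which share no library with the wild type comparison. Of the 37 genes 0 passed limma-voom, against 0.0939% of all genes (0.0268% higher and 0.0671% lower), and 0 passed limma-trend. The values leaned upward again. The fold change was positive in 35 of 37 members with a median of 0.18, and 19 members had an unadjusted p under 0.05 with a higher value and 1, C6, with a lower one (-0.45 ± 0.22), against 6.28% of all genes higher and 6.09% lower. Hepatocyte markers had a median of 0.12 and macrophage markers of -0.31, with 0 of 19 and 0 of 14 past the threshold.

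Cfb had groups that did not overlap, the 1 such member, against 0.0604% of all genes. It was at 899, 968 and 1062 CPM in FAAH S268D NASH and 1063, 1154 and 1298 CPM in FAAH S268D NASH-AA, so that the groups just touched (0.24 ± 0.07, adjusted p = 0.127). C3 was at 3930, 6050 and 7623 CPM on NASH and 7168, 7793 and 8781 CPM on NASH-AA. Its change was 0.51 ± 0.14 (adjusted p = 0.138), with 8 of 8 NASH-AA libraries above the NASH median, beside 0.03 in wild type. Cfi gave 0.28 ± 0.07 (adjusted p = 0.107) and Plg 0.36 ± 0.11 (adjusted p = 0.171). The fibrinogen chains gave 0.22 to 0.28, with 8 of 8 libraries above the NASH median for each.

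The count in FAAH S268D rested on 1 library, FAAH S268D NASH replicate 3. That library was singled out because the members themselves were highest in it (median deviation 0.352). Leaving it out of the NASH group therefore raises their values on NASH-AA, and the count without it is not an independent test. Without FAAH S268D NASH replicate 5, the low library of the group (-0.320), no member passed, where 9 of 14903 genes did. Without replicate 3, 8 members passed and all were higher on NASH-AA, against 1.02% of all genes higher in that fit. They were C3 (0.57 ± 0.14, adjusted p = 0.0316), C2 (0.37), Cfb (0.25) and Cfi (0.32) of complement activation and control, Hc (0.45), F7 (0.58), Plg (0.45) and Serpinf2 (0.43). Among library numbers 17 to 32 alone 5 passed, Cfi, F7, Plg and Serpinf2 again and C8b (0.839% of all genes higher in that fit). Among numbers 1 to 16, which hold replicate 3, 0 members passed, but so did 0 of all 14903 genes. In that replicate Plg, F7, F10, C8b and the fibrinogen chains had their highest level of the group, with C8b at 259 CPM where the group median was 68.6.

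For genotype on the NASH diet, FAAH S268D livers were set against wild type livers, which reuses the WT NASH and FAAH S268D NASH libraries of the diet comparisons. F10 (1.27-fold) and F2 (1.16-fold) were higher and Pros1 was lower in FAAH S268D. The background was 9.18% of genes past the threshold, 2.89% higher and 6.29% lower. The fold change was positive in 29 of 37 members with a median of 0.18, and in 0 of 37 members did the groups fail to overlap (0.221% of all genes). Beside them, hepatocyte markers had 8 of 19 higher and 1 lower with a median of 0.35, and macrophage markers 10 of 14 lower with a median of -0.92. Summed levels of the macrophage markers ran from 517 to 1358 CPM in WT NASH and 361 to 720 CPM in FAAH S268D NASH. Their part in the values of the members was not tested.

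F10 encodes factor X, the protease that turns prothrombin into thrombin (chromosome 8, 13037308 to 13056676). It was at 234, 272 and 305 CPM in WT NASH and 239, 330 and 457 CPM in FAAH S268D NASH. The mutant libraries reached both lower and higher than most of the wild type ones, with 6 of 8 above the wild type median, and the change was 0.34 ± 0.10 (adjusted p = 0.0282 by limma-voom). It was 0.54 ± 0.15 among library numbers 1 to 16 (adjusted p = 0.048) and 0.04 ± 0.10 among numbers 17 to 32 (adjusted p = 0.928). The call was lost when any 1 of 7 libraries was left out, FAAH S268D NASH replicates 1 to 4 and WT NASH replicates 2, 4 and 8, and was kept in 7 of 14 other settings.

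F2 was at 1306, 1634 and 1935 CPM in FAAH S268D NASH against the 1188, 1400 and 1643 CPM given above for WT NASH. That is a change of 0.21 ± 0.07 (adjusted p = 0.0491 by limma-voom), lost in 26 of 32 fits that left out 1 library and kept in 3 of 14 other settings, and 0.35 and 0.03 in the 2 ranges of library numbers. Pros1 (chromosome 16, 62854307 to 62929346) was at 61.9, 66.7 and 82.1 CPM in WT NASH and 47.6, 58.6 and 66.8 CPM in FAAH S268D NASH. It was lower by -0.27 ± 0.07 (adjusted p = 0.0148), with 7 of 8 mutant libraries below the wild type median, and of 32 fits that left out 1 library it lost the call in 1, without FAAH S268D NASH replicate 4 (adjusted p = 0.0539). It kept the call in 11 of 14 other settings. It lost it with the 2 groups fitted alone (adjusted p = 0.102) and within the ranges of library numbers, at -0.34 (adjusted p = 0.0543) and -0.15 (adjusted p = 0.649). Pros1 also varied least like the others from library to library. Its median r with the other 36 members was -0.21, the lowest of the 37.

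When the 16 libraries of these 2 groups were fitted alone, 0.51% of all genes passed, and 0 members did. Without FAAH S268D NASH replicate 5 there were 13, 12 higher (7.05% of all genes higher in that fit) and Pros1 lower, and without WT NASH replicate 5 there were 9, 8 higher (6.82%) and Pros1 lower. C8g, C9 and the anticoagulants Proc, Serpinc1 and Serpind1 did not pass, with values of 0.40 ± 0.13, 0.36 ± 0.14, 0.27 ± 0.10, 0.21 ± 0.07 and 0.25 ± 0.10 (adjusted p between 0.0511 and 0.106). C3 and Cfd had negative values, -0.29 ± 0.14 and -0.77 ± 0.67, and did not pass. C8a and C8b lie 11090747 and 11162597 bp from Faah on chromosome 4, and whether that bears on their genotype values was not tested.

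Libraries of FAAH S268D NASH parted in some of these genes, at a break chosen after the values were seen. C8b was at 105, 142, 259 and 99.95 CPM in replicates 1 to 4 and at 29.9, 30.8, 37.1 and 31.3 CPM in replicates 5 to 8. F7 was at 60.8, 69.5, 107 and 75.1 CPM and at 37.1, 42.1, 50.6 and 39.3 CPM in the same replicates. Hepatocyte markers parted at the same break. Their median log2 deviations were 0.232, 0.197, 0.269 and 0.477 in replicates 1 to 4. In replicates 5 to 8 they were -0.422, -0.173, -0.031 and 0.023. C3, F5 and Pros1 did not follow, each with its lowest level of the group in replicate 1. Replicates 1 to 5 carry library numbers below 17 and replicates 6 to 8 numbers above 16.

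For genotype on the NASH-AA diet 0 of 37 members passed limma-voom and 0 limma-trend, against 0.658% of all genes (0.349% higher and 0.309% lower). Values were positive in 28 of 37 with a median of 0.11, 8 higher and 2 lower had an unadjusted p under 0.05 (7.4% and 8.15% of all genes), and 0 of 37 pairs of groups did not overlap (0.617% of all genes). The 2 lower were Cfd (-1.06 ± 0.48, adjusted p = 0.283) and C6 (-0.65 ± 0.22, adjusted p = 0.159), a pore component, with levels of 120, 147 and 255 CPM in WT NASH-AA and 61.0, 99.2 and 184 CPM in FAAH S268D NASH-AA. With the 2 groups fitted alone, F7, F10, Plg and Serpinf2 were higher in FAAH S268D (4 of 37, against 1.59% of all genes). Over all 32 libraries they gave 0.40, 0.24, 0.29 and 0.33.

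The interaction, which tests whether the diet acted differently in the 2 genotypes, passed in 0 of 37 members and 0 of 14903 genes (0%) by limma-voom, and in 0 by limma-trend. At an unadjusted p under 0.05 there were 627 genes, with 2 members among them, C3 (0.47 ± 0.21) and Pros1 (0.20 ± 0.10), both with an adjusted p of 0.906. The C3 value of 0.51 in FAAH S268D and 0.03 in wild type is thus not shown to differ between genotypes. The median of the members was -0.05.

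The sign of the members' values depended on the scale. A change of scale shifts the values of all genes by about the same amount. The members' distance from the median of all genes was therefore nearly fixed in advance and tests nothing. The members' median lay above the median of all genes by 0.211 to 0.216 for diet in wild type and by 0.165 to 0.182 for genotype on NASH under the 4 scales. The main scale (TMM factors) equalises most genes, and with median-of-ratios factors the medians hardly moved. Scaling by the library total took the median of the members from 0.22 to 0.098 for diet in wild type, while the median of all genes moved by -0.116. The 19 hepatocyte markers as the scale moved the median of all genes to -0.230 for diet in wild type, -0.111 for diet in FAAH S268D, -0.309 for genotype on NASH and -0.190 for genotype on NASH-AA. The members' median for diet in wild type was then -0.019, with 16 of 37 positive. Of the members 1, Cfd, passed (1.72 ± 0.50, adjusted p = 0.0355), where 68 of 14903 genes were higher and 2298 lower. Cfi and Masp2 then stood at 0.08 and 0.04, and F2 at -0.004. For genotype on NASH the members' median was -0.145 on that scale, with 32 of 37 negative. There 0 were higher and 6 lower (C2, C3, Cfb, F9, Kng1 and Pros1), against 46.2% of all genes lower in that fit. The main scale gave 2 higher and 1 lower (2.89% and 6.29% of all genes). The library total gave 0 higher and 2 lower, where 163 of 14903 genes were higher and 2249 lower. Pros1 was lower on all of these scales, at -0.41 by library total and -0.58 by hepatocyte markers, and Cfd was higher on NASH-AA in wild type on all of them.

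**Figure D4:**
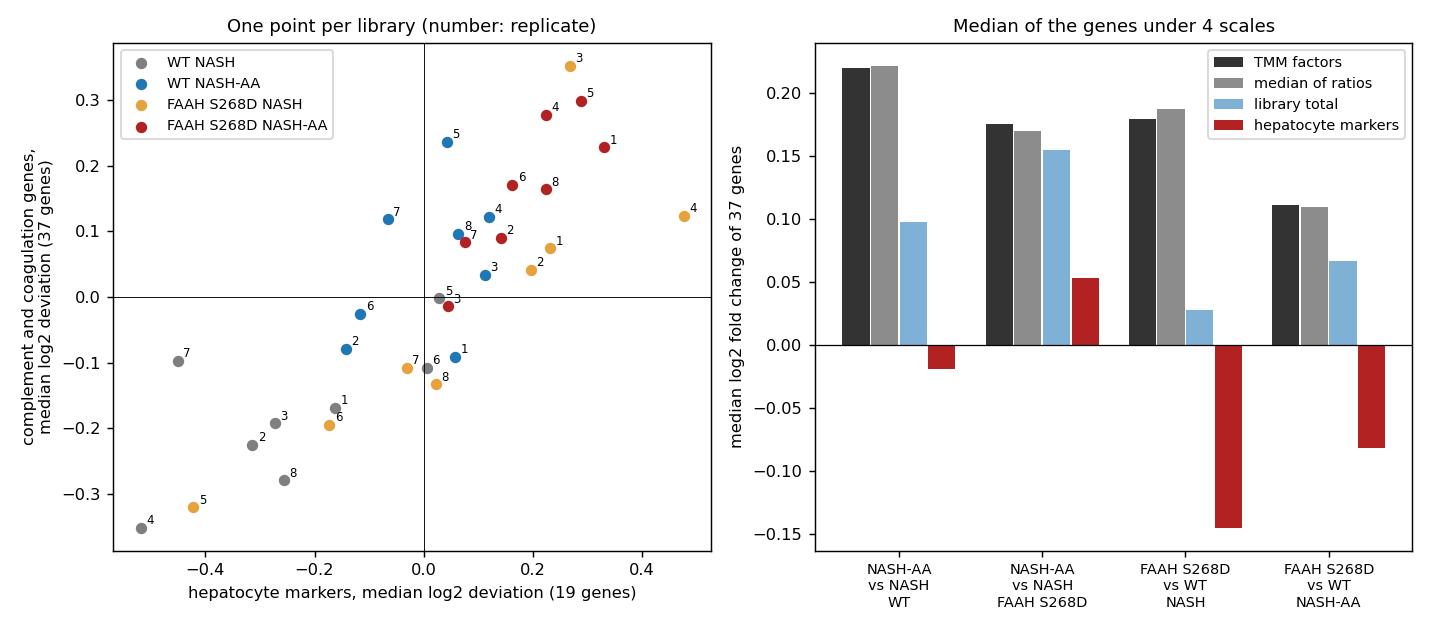
Left, median log2 deviation of the 37 genes (y axis) against that of 19 hepatocyte markers (x axis), 1 point per library, numbered by replicate; libraries low in one were mostly low in the other, with WT NASH replicate 4 lowest and FAAH S268D NASH replicate 3 highest for the 37 genes. Right, median log2 fold change of the 37 genes (bars from 0) in the 4 comparisons under 4 scales; with hepatocyte markers as the scale 3 of the 4 medians were below 0, where the medians of all genes were -0.111 to -0.309.

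Other genes of these pathways include receptors, regulators and genes that other cells make. Among 31 further complement genes tested, 3 were higher and 7 lower in FAAH S268D on NASH, with 19 of 31 values positive and a median of 0.13. C1rl (0.28), a relative of the C1r protease gene, and Cpn1 (0.21), a subunit of the carboxypeptidase that inactivates anaphylatoxins, were among the 3. C5ar2 (-0.48), a C5a receptor gene, was lower. The 3 chains of C1q, C1qa (-0.74), C1qb (-0.77) and C1qc (-0.77), properdin (Cfp, -0.65) and the anaphylatoxin receptors C5ar1 (-1.66 ± 0.38, adjusted p = 0.00763) and C3ar1 (-0.99 ± 0.25, adjusted p = 0.0147), all genes that macrophages and other myeloid cells express, were lower. C1qa, for example, was at 58.9, 99.3 and 155 CPM in WT NASH and 39.5, 61.8 and 86.3 CPM in FAAH S268D NASH. For diet in wild type 1 of the 31 passed, C4bp, a soluble inhibitor made by hepatocytes (0.23 ± 0.07, adjusted p = 0.0459).

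Of 29 further coagulation and fibrinolysis genes tested, 1 was higher and 4 lower in FAAH S268D on NASH. Ggcx, the carboxylase that activates the vitamin K dependent factors, was higher (0.26 ± 0.07, adjusted p = 0.0247). Lower were the protein C receptor gene Procr (-0.81), urokinase (Plau, -1.09), the urokinase receptor gene Plaur (-0.96) and the tissue factor inhibitor gene Tfpi (-0.42). For diet in wild type Ggcx was again higher (0.28 ± 0.07, adjusted p = 0.033), and Plau (-0.75) and the protease receptor gene F2rl1 (-1.55) were lower. In the FAAH S268D diet comparison and for genotype on NASH-AA, 0 of either list passed. Of the coagulation list the smallest p there belonged to S100a10 (-0.64) for diet and to Ggcx (0.24) for genotype, and of the complement list to C1qa (-0.60) for genotype.

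Of 25 liver transcription factor genes 23 had positive values for diet in wild type (median 0.14) and 22 for diet in FAAH S268D (median 0.18), and calls in this list are not reported here. Of 23 acute-phase genes 4 were higher for diet in wild type, Serpina3m (0.71), Saa4 (0.93), Itih4 (0.59) and Saa3 (1.02 ± 0.29, adjusted p = 0.0423), with a list median of 0.29. Itih4, a plasma protein gene, was at 1046, 1469 and 3164 CPM in WT NASH and 1751, 2334 and 3122 CPM in WT NASH-AA. For genotype the acute-phase median was -0.12 on NASH (1 higher, Serpina3m, 0.49) and -0.27 on NASH-AA (0 passed), where the members' medians were 0.18 and 0.11.

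**Figure D5:**
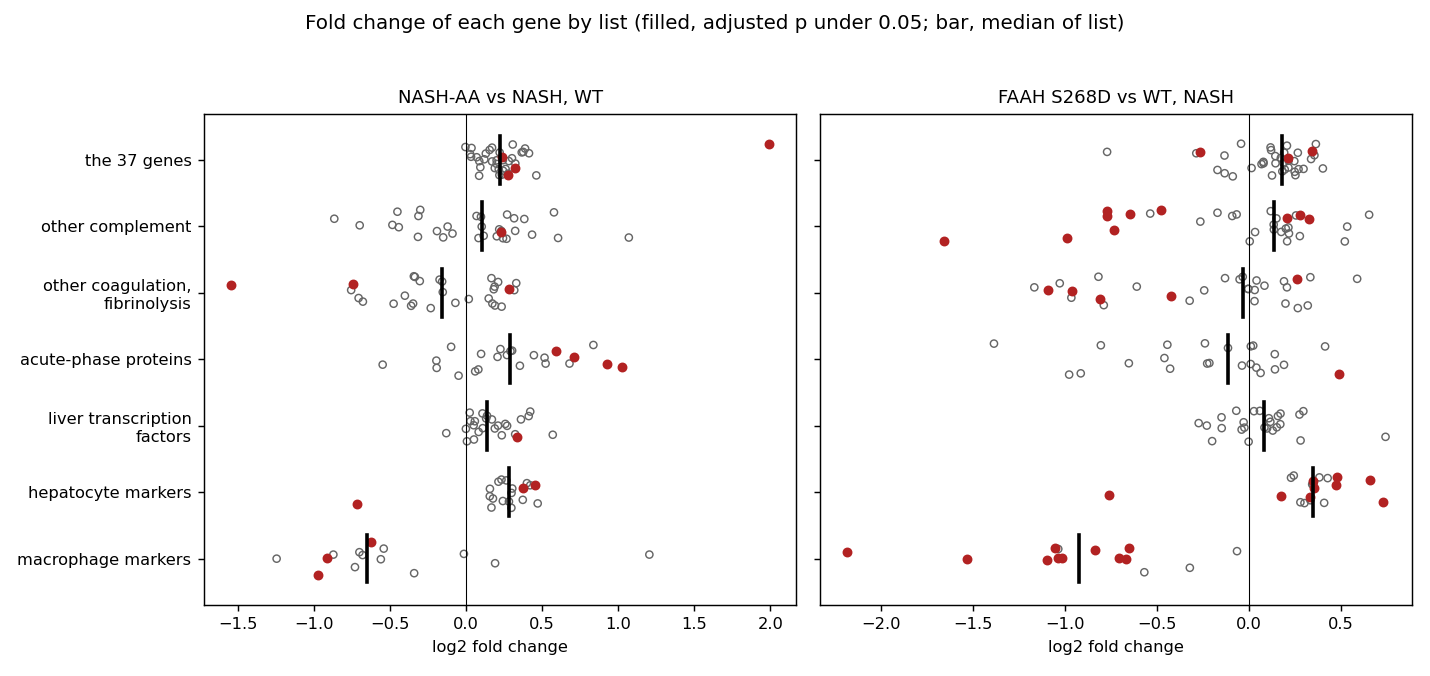
Log2 fold change (x axis) of each gene of 7 lists (y axis; vertical jitter only separates points), for diet in wild type (left) and genotype on NASH (right), 8 against 8 libraries; filled points passed an adjusted p of 0.05 and bars are list medians. The 37 genes lie mostly to the right of 0 near the hepatocyte markers, while macrophage markers and part of the other complement and coagulation genes lie to the left.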

How the data were processed

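PolyA RNA of 32 whole-liver libraries (4 groups of 8) was sequenced. Per the submitters' processing notes, reads were handled by STAR 2.7.10, UMI-tools 1.1.2 and Trim Galore 0.6.7, with GRCm38 as the build. How reads were counted, on which annotation and with which strand setting is not given in the sources used here. The authors deposited 1 table of unscaled estimated counts in which 52450 of 1775584 cells had been altered as text in the way a spreadsheet does (digit-grouping marks, clock times). These were restored by fixed rules. Of the 1184 cells of the 37 genes, 367 were altered and 1 had 2 possible readings. Because of the altered cells the table was not treated as plain counts, and limma-voom (limma 3.58.1, R 4.3.3) was the test.

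Genes were kept at the CPM of 10 counts in a median library (0.437 CPM) in 8 libraries and 15 counts in total, which left 14903. TMM factors trimmed 30% of log ratios and 5% of mean levels, and the prior count was 0.5. One mean was fitted per group, with 4 contrasts and the interaction, and Benjamini-Hochberg adjustment over all genes. The 4 groups shared 1 estimate of the spread per gene, so a library can move p-values of comparisons it is not part of. The fit was run on simulated counts with changes in WT NASH-AA alone and each library drawn independently. That check does not cover libraries that stand apart or effects shared by libraries, so it says nothing of calls that single libraries move. Depth limits precision most for Cfd and in the shallowest library. Correlations used 100000 permutations (SciPy 1.17.1).

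The members and lists were chosen with earlier results of these data known. Values are described for members past the threshold in any comparison, Cfd, and the member of smallest p in each role. From the other lists, up to 6 genes past the threshold, or the 2 of smallest p, were taken per comparison. Members named beyond these, and C1qa's and Itih4's levels, were chosen after their values were seen. Some results for genes of the other lists are not reported here. Promoters and exon positions are from RefSeq (GRCm38.p6) and GENCODE (GRCm38). Alternatives were 3 other scales, no filter and a stricter one, blocks for replicate and library number range, each range alone, 2 groups alone, sample quality weights, limma-trend, the other reading of ambiguous cells, and leaving out each library. Leaving out the 4 libraries numbered replicate 1 was added after seeing the data. Columns of other samples numbered 0.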

Additional observations from a re-analysis of the deposited data

Results flagged for a closer look

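In 148 groups of 8 values (37 genes in 4 groups), 12 had 1 library farther from the others than Dixon's 95% critical value (0.526 for 8 values) allows, and chance flags about 1 in 20 groups. Masp1 in FAAH S268D NASH replicate 1, the shallowest library, was at 126.6 CPM where the other 7 ran from 183.3 to 203.8. F5 in the same library was at 294.8 (others 570.1 to 783.9), and F5 in WT NASH-AA replicate 1 at 563.2 (others 728.2 to 825.6). In WT NASH replicate 7, Fga was at 4034 (others 2413 to 2912) and Fgb at 3529 (others 2040 to 2612). In WT NASH-AA replicate 7, Mbl2 was at 175.7 (others 241.2 to 317.8) and Serpinc1 at 1395 (others 1531 to 1640). Mbl2 was also low in FAAH S268D NASH-AA replicate 4, at 197.0 (others 242.6 to 291.6). Masp2 was low in WT NASH-AA replicate 2, at 211.6 (others 231.7 to 250.8), and in FAAH S268D NASH-AA replicate 3, at 208.4 (others 240.1 to 272.0). C9 was high in WT NASH replicate 3, at 445.4 (others 346.7 to 384.0), and Klkb1 in WT NASH-AA replicate 3, at 191.8 (others 141.5 to 161.4).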

How the results depend on the processing

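The count of members past the threshold depended on the fit and on single libraries. In the comparisons of 2 groups the members' median stayed above 0 whichever single library was left out. Some medians fell below 0 with hepatocyte markers as the scale, and so did that for genotype on NASH in numbers 17 to 32 alone. For diet in wild type 4 members and 4.41% of all genes passed. The count was 2 with the library total as the scale (11.3% of all genes passed), 1 with hepatocyte markers (15.9%) and 1 with no filter (0.574%). It was 0 with the replicate block (0.114%) and 2 with a block for the library number range (2.48%). In numbers 1 to 16 alone it was 0 (0%) and in 17 to 32 alone 0 (1.02%). It was 9 in 2 groups alone (7.33%), 23 with sample quality weights (25.2%) and 1 with limma-trend (1.66%). Without the 4 libraries numbered replicate 1 it was 1 (3.2%). The members' median (0.220) was 0.098 with the library total and -0.019 with hepatocyte markers. For diet in FAAH S268D (0 members) it was 5 in numbers 17 to 32 alone (2.5% of all genes) and 15 with sample quality weights (7.13%). For genotype on NASH (3 members, 9.18% of all genes) the count was 6 with hepatocyte markers (46.8%), 1 with no filter (3.57%) and 1 in numbers 1 to 16 alone (5.99%). It was 0 in 17 to 32 alone (0.134%), 0 in 2 groups alone (0.51%) and 1 without the 4 libraries numbered replicate 1 (8.02%). The median (0.180) was -0.145 with hepatocyte markers and -0.026 in numbers 17 to 32. For genotype on NASH-AA (0 members) it was 4 in 2 groups alone (4.13%) and 3 with sample quality weights (5.07%), and the median was -0.082 with hepatocyte markers. The hepatocyte scale moved the median of all genes to -0.230 for diet in wild type and -0.309 for genotype on NASH. With that shift F2 was at -0.004 for diet in wild type, and F2, F9 and Kng1 at -0.106, -0.193 and -0.186 for genotype on NASH. The cause of these moves was not tested.

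Leaving out 1 library gave 0 (without WT NASH-AA replicate 5) to 10 members (without WT NASH replicate 5) for diet in wild type, with medians of 0.196 to 0.248. It gave 0 to 8 for diet in FAAH S268D (0.146 to 0.228), and 0 (without FAAH S268D NASH replicate 4) to 13 (without FAAH S268D NASH replicate 5) for genotype on NASH (0.107 to 0.214). It gave 0 to 0 for genotype on NASH-AA (0.084 to 0.123) and 0 to 0 for the interaction (-0.084 to 0.010). Over all genes 65 and 2191 passed in the 2 fits named for diet in wild type, where the main fit had 657. In the 2 fits named for genotype on NASH 515 and 2618 genes passed, where the main fit had 1368. For diet in wild type 14 libraries moved the count by over 1.5 times, to 0 to 2 members for WT NASH replicates 2, 3, 4, 7 and 8 and WT NASH-AA replicates 3 to 8, and to 7 to 10 for WT NASH replicate 5 and FAAH S268D NASH replicates 3 and 5. For genotype on NASH 9 did, to 0 or 1 for WT NASH replicates 2, 4 and 8 and FAAH S268D NASH replicates 2, 3 and 4, and to 7 to 13 for WT NASH replicate 5 and FAAH S268D NASH replicates 5 and 6.

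Replicate numbers were not taken to pair the libraries, since 13 of 48 correlations were over 0.1. Over the 48 pairs of the same number in different groups, the correlation of deviations from the group means ran from -0.383 to 0.332 (median 0.005, other pairs -0.013), and 5 of 32 libraries correlated best with their own number. The 6 pairs among the libraries numbered replicate 1 had correlations of 0.098 to 0.332. With the replicate block Cfd, Cfi and Masp2 had adjusted p-values of 0.0625, 0.0583 and 0.0811 for diet in wild type, where 0.114% of all genes passed. For genotype on NASH 3 members passed in that fit, F10, Pros1 and C8g (6.45% of all genes).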

Other observations

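The libraries numbered replicate 1 were low for several long genes. F5 (7430 exon bases) and Hc (6265) had their lowest level of the group in replicate 1 in all 4 groups, Masp1 (9833) in 3 and C3 (5143) in 2. Of the other 33 genes, 9 were lowest there in 1 group and 24 in 0. Averaged over the 4 groups, the deviation of replicate 1 from its group's mean was -0.55 on the log2 scale for F5, -0.33 for C3, -0.28 for Hc, -0.23 for Masp1 and -0.19 for C4b (5695), and it was 0.94 for Cfd (922), 0.32 for C8g (1493) and 0.32 for Mbl2 (1089). Over the 37 genes, which share these 4 libraries and are not independent, Spearman's rho of that deviation with exon length was -0.587. Serpinc1 (8546) went against it at 0.04. Without these 4 libraries the changes of Cfd on NASH-AA were 1.93 ± 0.57 in wild type (adjusted p = 0.0538 by limma-voom) and 1.75 ± 0.72 in FAAH S268D (adjusted p = 0.395). RNA quality was not measured in the files used here, and the cause was not tested.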
